A study of Homo sapiens with 24 samples.

Results

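The HOX cluster genes were taken as the rows of both count tables whose symbol is HOX, a cluster letter from A to D and a paralog number. There were 39 such genes among 28277, namely 11 in cluster A on chromosome 7, 10 in cluster B on chromosome 17, 9 in cluster C on chromosome 12 and 9 in cluster D on chromosome 2. HOX genes encode homeodomain transcription factors that give cells along the body axis their positional identity. Within a cluster, genes with low paralog numbers lie toward the 3′ end and are known to act anteriorly and early, whereas genes with high paralog numbers act posteriorly and late. In the female reproductive tract the posterior members pattern the oviduct, uterus and cervix, and HOXA9, HOXA10 and HOXA11 are known for being switched on in ovarian carcinomas of different histology.

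Expression was measured by RNA-seq in PEO1 and PEO4, high-grade serous ovarian carcinoma lines that come from the same patient before and after resistance to chemotherapy. Pair A held untreated PEO1, which lacks functional BRCA2 and whose genotype label reads WT, and untreated PEO4, also labelled WT, in 3 libraries each. According to the study, PEO4 regained BRCA2 through a reversion mutation, so the lines of pair A differ in BRCA2 function. Pair B held PEO1 with restored BRCA2, labelled BRCA2+ and named PEO1 BRCA+ in the study, and PEO4 labelled WT. Both lines of pair B were untreated or kept in 5 µM pyridostatin (PDS), a small molecule that binds G-quadruplexes (G4s), for 2 or 6 h, with 3 libraries for each of the 6 groups. The lines stand for a single patient, so the comparison of lines has no replicate above the line.

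Pair A libraries summed to between 32528913 and 63882077 counts. In pair B the untreated libraries summed to between 18699929 and 22375644 and the treated libraries to between 33260167 and 43713947, so that every treated library was deeper than every untreated one, and its part in the responses to PDS was not tested. BRCA2 mRNA averaged 5.03 to 13.5 CPM (counts scaled to the effective library size) over the groups and does not check the genotype labels. The serous markers PAX8 and WT1 averaged between 83.6 and 331 CPM in every group, whereas SOX17 averaged at most 0.197 CPM. Of 13 ovarian carcinoma markers, 11 or 12 reached 1 CPM in each group. The 4 leukocyte markers summed to at most 6.12 CPM per library, with PTPRC at most 0.0228 CPM on average and CD3E at 0. The 5 fibroblast markers summed to between 20 and 36.8 CPM in untreated PEO4 of pair B against 2.74 to 7.72 CPM in its treated libraries and to between 32.5 and 36.7 CPM in PEO1 against 5.82 to 10.9 CPM in PEO4 of pair A. The 3 mesothelial markers summed to between 22.6 and 29.2 CPM in PEO1 and 71.1 and 105 CPM in PEO4 of pair A. In pair B they summed to between 37.4 and 45.6 CPM over the libraries of PEO1, and in PEO4 to between 55.2 and 90.1 CPM untreated against 22.5 to 27.5 CPM treated. That fall was of UPK3B alone, from a mean of 72.1 CPM to 10.6 and 7.02 CPM at 2 and 6 h, whereas CALB2, from 0.206 to 7.3 and 2.17 CPM, and LRRN4, from 2.01 to 5.77 and 17.9 CPM, were called higher at both times. The 3 endothelial markers summed to at most 2.72 CPM. The part of such differences in the HOX values was not tested.

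The tables did not treat overlapping genes alike. Among counts from 1 to 50, between 66.7% and 71.5% were even in pair A and between 42.8% and 45.0% in pair B, and whether read pairs were counted as 2 in pair A was not tested. In pair B the antisense gene HOXA-AS3 had 77.3% to 85% of the counts of HOXA7 in every group, and HOXA10-AS had 60% to 109% of those of HOXA10. In pair A the same shares were at most 1.11% and 45.5%. HOXB-AS3 had 45.6% to 206% of the counts of HOXB5 in pair B and at most 12.2% in pair A, and HOXB-AS1 had 26.2% to 36.2% of those of HOXB3 in pair B and at most 1.27% in pair A. HOXC13-AS had 41.9% to 100% of the counts of HOXC13 in pair B and 140% in PEO1 of pair A. Reads of HOXA7, HOXA9, HOXA10, HOXB3, HOXB5 and HOXB6 in pair B, and of HOXC13 in both pairs, can therefore not be told apart from those of the genes that overlap them, and levels of the same gene in the separate tables are given side by side, with no test. In PEO1 of pair A HOTAIR had 32.2% of the counts of HOXC11 and HAGLR 770% of those of HOXD1. HOXB2 overlaps HOXB-AS1. HOXC-AS3, which overlaps HOXC10, had 1.1% of the counts of HOXC10 in PEO1 of pair A and 10.7% to 17.1% in PEO1 of pair B. Whether HOXA10, HOXC11 and HOXD1 in pair A, and HOXB2 and HOXC10 in pair B, also shared reads with such genes was not tested.

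Because PDS binds G4s, the promoters were searched for 4 runs of GGG spaced by 1 to 7 bases on either strand, in the 300 bases from 250 before to 50 after the start in RefSeq (GRCh38.p14). Promoters were listed for 20 of the 39 genes, in 19 distinct windows, of which 7 (36.8%) held the motif against 6544 of all 27305 promoters (24%). Among others, no promoter was listed for HOXB2 to HOXB9 or for HOXC6 to HOXC13. The share therefore does not cover the genes that led HOX expression, nor HOXB9, HOXC10 or HOXC13. HOXC4 and HOXC5 share a window, and HOXC6 has the same annotated start. The motif was in the promoters of HOXA6, HOXA13, HOXB1, HOXC4, HOXC5, HOXD1, HOXD12 and HOXD13, and not in those of HOXA2, HOXA3, HOXA4, HOXA7, HOXA9, HOXA10, HOXA11, HOXD3, HOXD4, HOXD8, HOXD10 and HOXD11. The 250 bases before the start are shown for the expressed gene pair with the motif, for HOXD13, which has it on both strands, and for 3 genes without it that carry the results below, with the motif in capitals (also where it is read from the other strand), 5′ to 3′ on the strand of the gene:
HOXC4 and HOXC5, chr12:54016638-54016887, plus strand: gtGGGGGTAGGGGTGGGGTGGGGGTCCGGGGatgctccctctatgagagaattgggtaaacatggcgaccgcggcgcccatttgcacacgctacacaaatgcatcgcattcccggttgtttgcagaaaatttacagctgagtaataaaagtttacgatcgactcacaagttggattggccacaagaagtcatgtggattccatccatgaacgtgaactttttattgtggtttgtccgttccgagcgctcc
HOXD13, chr2:176092471-176092720, plus strand: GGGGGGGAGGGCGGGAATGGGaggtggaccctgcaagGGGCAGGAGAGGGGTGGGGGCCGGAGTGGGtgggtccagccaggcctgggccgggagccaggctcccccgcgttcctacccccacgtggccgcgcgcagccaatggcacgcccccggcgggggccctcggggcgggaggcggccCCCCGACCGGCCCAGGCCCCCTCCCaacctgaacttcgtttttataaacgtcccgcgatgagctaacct
HOXA3, chr7:27152584-27152833, minus strand: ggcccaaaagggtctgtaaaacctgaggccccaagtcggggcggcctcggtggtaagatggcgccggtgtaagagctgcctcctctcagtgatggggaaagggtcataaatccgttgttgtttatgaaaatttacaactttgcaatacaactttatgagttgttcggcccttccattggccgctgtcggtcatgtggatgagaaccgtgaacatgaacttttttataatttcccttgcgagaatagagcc
HOXA10, chr7:27179862-27180111, minus strand: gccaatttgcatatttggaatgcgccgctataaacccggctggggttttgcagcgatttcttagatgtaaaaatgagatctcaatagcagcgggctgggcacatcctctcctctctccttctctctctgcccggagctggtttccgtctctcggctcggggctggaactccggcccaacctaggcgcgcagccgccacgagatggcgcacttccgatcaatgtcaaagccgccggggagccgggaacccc
HOXD8, chr2:176129455-176129704, plus strand: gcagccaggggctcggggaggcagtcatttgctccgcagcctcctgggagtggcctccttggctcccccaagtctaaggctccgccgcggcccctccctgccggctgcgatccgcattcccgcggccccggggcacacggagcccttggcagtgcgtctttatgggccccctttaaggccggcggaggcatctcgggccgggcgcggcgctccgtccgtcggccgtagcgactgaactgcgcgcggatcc

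HOX expression in both lines was led by the 3′ genes of cluster B, and PEO4 held little else. A mean of at least 1 CPM was reached by 21 of the 39 genes in PEO1 and 6 in PEO4 of pair A, and by 20 and 7 in untreated cells of pair B. Cluster B held 69.9% of all HOX CPM in PEO1 and 98.8% in PEO4 of pair A, and 85.1% and 99.3% in pair B. Paralogs 9 to 13 summed to 115 ± 4.4 CPM (SD, n = 3) in PEO1 and 0.233 ± 0.058 CPM in PEO4 of pair A, and to 55.9 ± 1.96 and 0.352 ± 0.168 CPM in untreated cells of pair B. Such sums count a read again where genes overlap. HOXB13 and HOXD10 had 0 counts in all 24 libraries.

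**Figure D1:**
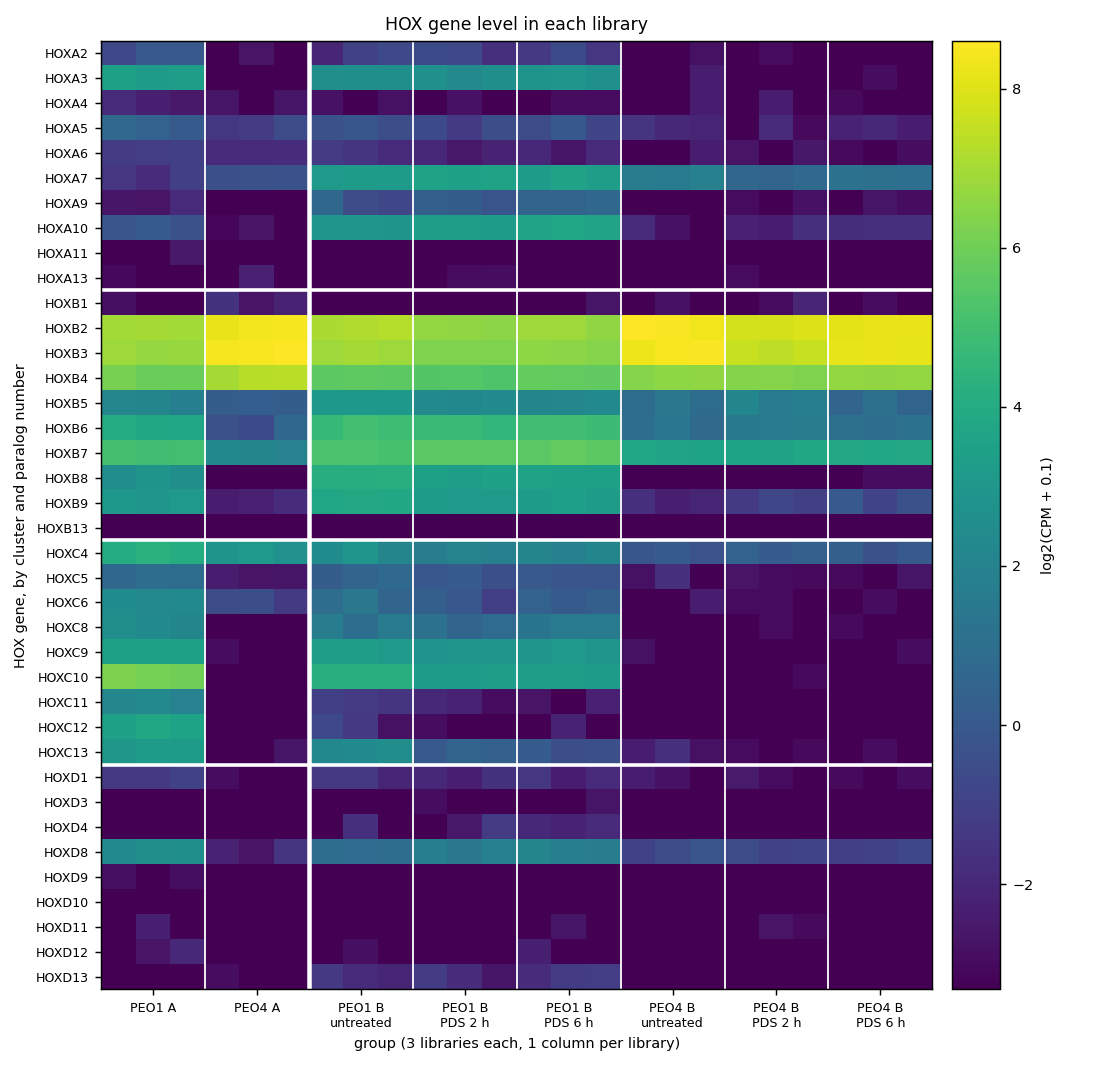
Level of 38 HOX genes (rows, by cluster and paralog number) in the 24 libraries (columns, 3 per group), as log2 of CPM + 0.1. HOXB2 and HOXB3 are brightest throughout, and the rows of cluster C from HOXC8 on are dark in every PEO4 library.

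Per kilobase of the canonical transcript (GENCODE release 44), HOXB2 was the highest HOX gene in every group, with 86.6 CPM per kb in untreated PEO1 and 216 CPM per kb in untreated PEO4 of pair B. In PEO1 of pair B it was followed by HOXB3 at 36.3, HOXB7 at 26.6, HOXB4 at 24.5, HOXB6 at 17.3 and HOXC10 at 9.32 CPM per kb. In PEO4 of pair B HOXB3 followed at 105, HOXB4 at 46.8 and HOXB7 at 8.98 CPM per kb, and no other member passed 1.61 CPM per kb. In pair A HOXB2, HOXC10, HOXB3 and HOXB4 led in PEO1 with 74, 35.2, 33.1 and 31.8 CPM per kb, and HOXB2, HOXB3, HOXB4 and HOXC4 in PEO4 with 196, 110, 75.3 and 4.35 CPM per kb. In PEO1 of pair A HOXC10, HOXB3 and HOXB4 did not differ in level per kb beyond their spread.

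**Figure D2:**
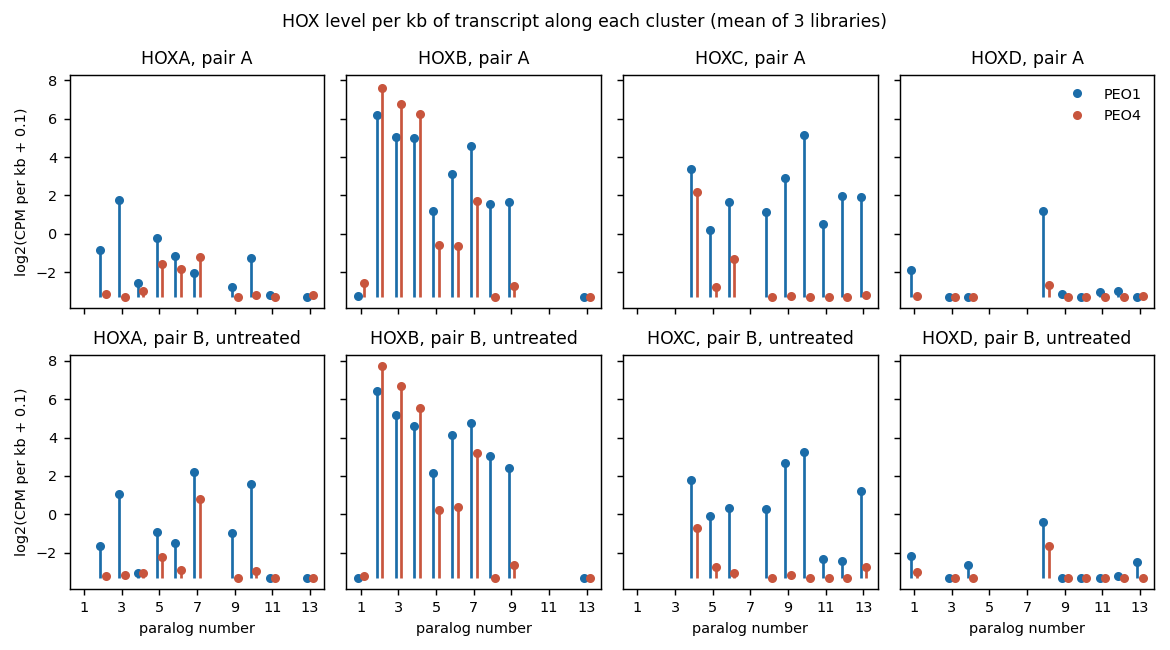
Mean level per kb of transcript, as log2 of CPM per kb + 0.1, against the paralog number in each cluster for PEO1 (blue) and PEO4 (red) in pair A (top) and untreated pair B (bottom), mean of 3 libraries. PEO4 exceeds PEO1 at HOXB2, HOXB3 and HOXB4 and falls below it over most of the rest of clusters B and C.

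The comparison of the untreated lines asked which HOX genes differ between the sensitive and the resistant state. Calls required an adjusted p below 0.05 in the quasi-likelihood test of edgeR and a log2 fold change beyond 1 in either direction. In pair A 26 HOX genes had enough counts to be tested. Of these, 4 were higher in PEO4, against 12.6% of all 15882 genes tested, 21 were lower, against 13.1%, and HOXA6 was not called, with a log2 fold change of -0.98 ± 0.481 (SE). In pair B 24 were tested, of which 2 were higher, against 12.2% of all 17020 genes, and 21 were lower, against 12.6%. The median log2 fold change of the tested HOX genes was -4.35 in pair A and -4.15 in pair B, beside -0.01 and 0.00 over all genes. With members at 3 counts or fewer in PEO4 set to their ratio or bound, the medians were -4.46 and -3.96. Of the 22 genes tested in both pairs, 18 were lower in both, 2 were higher in both and HOXA7 had opposite calls.

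**Figure D3:**
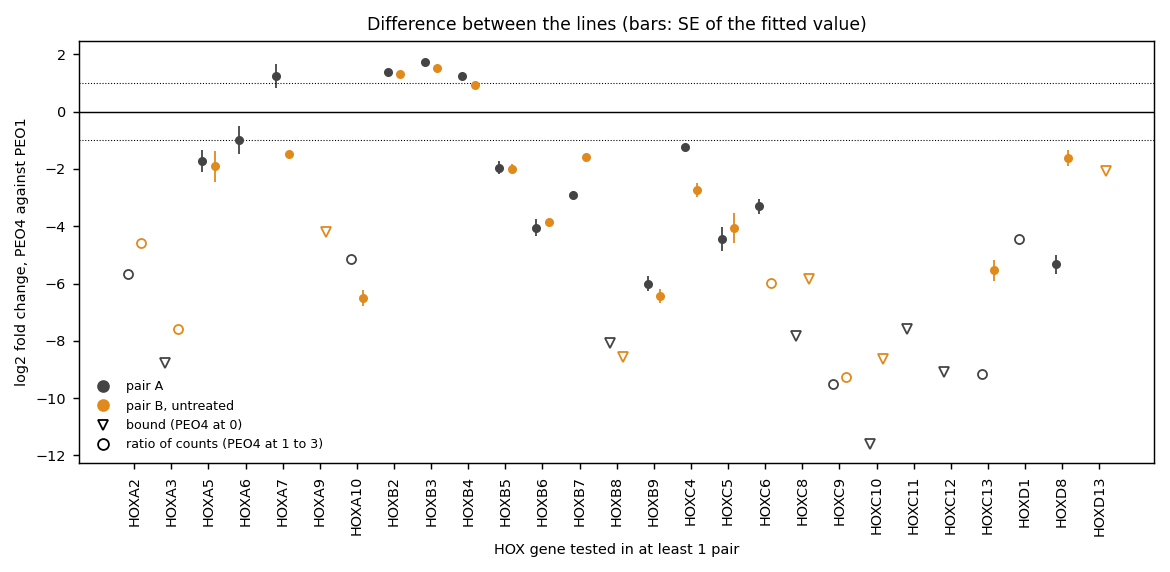
Log2 fold change of PEO4 against PEO1 for 27 of the 28 HOX genes tested in at least 1 pair, in pair A (grey) and untreated pair B (orange). Filled points are fitted values with their SE, open triangles are bounds for genes at 0 counts in PEO4, open circles are ratios for genes at 1 to 3 counts there, and dotted lines mark -1 and 1. HOXB2, HOXB3 and HOXB4 lie above 0 in both pairs.

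Within cluster B the direction changed between neighbouring genes. HOXB2, a regulator of hindbrain segments, measured 123, 128 and 122 CPM in PEO1 and 295, 340 and 352 CPM in PEO4 of pair A. In untreated pair B it measured 137, 146 and 154 CPM in PEO1 and 388, 374 and 328 CPM in PEO4. Every PEO4 library lay above every PEO1 library, and the log2 fold changes were 1.40 ± 0.0824 in pair A and 1.32 ± 0.0726 in pair B, with adjusted p of 2e-08 and 3.2e-14.

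HOXB3, which neighbours it and overlaps HOXB4 in the annotation, measured 116, 105 and 107 CPM in PEO1 and 348, 353 and 384 CPM in PEO4 of pair A. It measured 115, 127 and 117 CPM in PEO1 and 318, 356 and 366 CPM in PEO4 of pair B. The groups did not overlap in either pair, and HOXB3 was higher in PEO4 by 1.73 ± 0.0779 and 1.53 ± 0.0625 on the log2 scale (adjusted p = 2e-09 and 9.8e-17). HOXB4, known for expanding blood stem cells, averaged 63.8 ± 7 CPM in PEO1 and 151 ± 19.9 CPM in PEO4 of pair A, and rose by 1.24 ± 0.108 (adjusted p = 1e-06). In pair B it averaged 49.1 ± 0.936 and 93.7 ± 6.28 CPM, a log2 fold change of 0.93 ± 0.0594 (adjusted p = 5.7e-13) that stayed under the fold threshold.

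From HOXB5 onward all tested members of cluster B were lower in PEO4 in both pairs. HOXB5 fell by 1.95 ± 0.221 and 2.01 ± 0.177 on the log2 scale in pairs A and B. HOXB6 measured 16.4, 14 and 13.4 CPM in PEO1 against 0.678, 0.539 and 1.53 CPM in PEO4 of pair A, and 25.6, 32.1 and 29.4 CPM against 1.9, 2.46 and 1.66 CPM in pair B. Its libraries were well apart, at -4.05 ± 0.286 and -3.86 ± 0.12 (adjusted p = 3.3e-07 and 4.7e-19). HOXB7 fell by 2.90 ± 0.114 in pair A and by 1.57 ± 0.0748 in pair B. HOXB8 had 268, 264 and 311 counts in PEO1 and 0 in all 3 PEO4 libraries of pair A, and 363, 414 and 420 counts against 0 in pair B. Set against 3 counts over the PEO4 group, HOXB8 was at least 273-fold and at least 381-fold lower in PEO4. These bounds cover counting error only, and those of pair A would be lower if read pairs were counted as 2. HOXB9 averaged 7.98 ± 0.459 CPM in PEO1 and 0.130 ± 0.0478 CPM in PEO4 of pair A, and 13.8 ± 0.755 and 0.152 ± 0.0592 CPM in pair B, with log2 fold changes of -6.00 ± 0.268 and -6.44 ± 0.236. HOXB1, the most 3′ gene, had too few counts to be tested, with 15, 2 and 4 counts in PEO4 and 2, 0 and 0 in PEO1 of pair A.

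Cluster C was lower in PEO4 for all 9 members tested in pair A and all 7 tested in pair B. HOXC10, a posterior member that also marks lumbar motor neurons, had 3588, 2559 and 3475 counts in PEO1 and 0 in each PEO4 library of pair A. In pair B it had 382, 455 and 413 counts in PEO1 and again 0 in PEO4. The resulting bounds were at least 3079-fold lower in pair A and at least 397-fold lower in pair B. HOXC9 had 522, 417 and 579 counts in PEO1 against 2, 0 and 0 in PEO4 of pair A, a ratio of 728 (95% counting interval 201 to 6016). In pair B it had 208, 239 and 191 counts against 1, 0 and 0, a ratio of 609 (109 to 24073). Such intervals would be wider in pair A if read pairs were counted as 2. HOXC8 was at least 226-fold and at least 57.6-fold lower.

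The 5′ end of cluster C was also silent or nearly so in PEO4. HOXC11 had 215, 180 and 202 counts and HOXC12 had 543, 518 and 628 counts in PEO1 of pair A against 0 in PEO4, at least 193-fold and at least 546-fold lower. In PEO1 of pair B these genes had only 8, 8 and 6 counts and 11, 7 and 1 counts and were not tested. HOXC13, which controls keratins of hair and nail, averaged 8.74 ± 0.872 CPM in PEO1 of pair A against 0, 0 and 2 counts in PEO4, a ratio of 577 (159 to 4769). In pair B it averaged 5.20 ± 0.454 CPM in PEO1 and 0.111 ± 0.0803 CPM in PEO4, a log2 fold change of -5.54 ± 0.366 (adjusted p = 1.1e-12).

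The 3′ end of cluster C kept some expression. HOXC4 measured 16.8, 19.3 and 16.8 CPM in PEO1 and 7.04, 8.71 and 6.52 CPM in PEO4 of pair A, and fell by 1.25 ± 0.135. In pair B it measured 5.51, 7.48 and 4.13 CPM against 0.823, 1 and 0.737 CPM, and fell by 2.74 ± 0.235. HOXC5 fell by 4.45 ± 0.423 and 4.06 ± 0.52, and HOXC6, which is used in skeletal and mammary development, fell by 3.31 ± 0.261 in pair A. In pair B HOXC6 had 38, 63 and 31 counts in PEO1 and 0, 0 and 2 in PEO4, a ratio of 63 (17.1 to 525). HOXC4, HOXC5 and HOXC6 overlap in the annotation, so their values are uncertain.

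In cluster A the largest ratio or bound in both pairs belonged to HOXA3, which overlaps HOXA4, HOXA5 and HOXA6 in the annotation and is needed for the thymus and parathyroid. It had 524, 347 and 518 counts in PEO1 and 0 in every PEO4 library of pair A, at least 442-fold lower. In pair B it had 121, 147 and 139 counts against 0, 0 and 2, a ratio of 194 (53.4 to 1608). HOXA5 fell by 1.72 ± 0.394 in pair A and by 1.91 ± 0.534 in pair B. HOXA2 had 25, 34 and 48 counts in PEO1 against 0, 2 and 0 in PEO4 of pair A, and 3, 10 and 12 against 0, 0 and 1 in pair B. With only the untreated groups of pair B compared, HOXA2 did not pass the filter.

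HOXA10, which patterns the uterus, measured 0.795, 0.961 and 0.676 CPM in PEO1 of pair A and 7.57, 7.48 and 7.16 CPM in PEO1 of pair B. PEO4 had 1, 2 and 0 counts in pair A and 4, 1 and 0 in pair B. The ratio was 35.2 (11.7 to 173) in pair A, and the log2 fold change was -6.51 ± 0.288 in pair B (adjusted p = 4.5e-16). HOXA9, which patterns the oviduct, was tested in pair B alone, with 31, 14 and 11 counts in PEO1 and 0 in PEO4, at least 18.3-fold lower. HOXA7 was the member whose calls were opposite. It measured 0.272, 0.187 and 0.376 CPM in PEO1 and 0.663, 0.681 and 0.704 CPM in PEO4 of pair A, and 8.77, 9.25 and 9.35 CPM against 3.16, 3.01 and 3.59 CPM in pair B. The log2 fold changes were 1.26 ± 0.418 (adjusted p = 0.02) and -1.49 ± 0.122 (adjusted p = 7.6e-11), and the groups were apart in both tables. The call of pair A was lost without PEO1 replicate 1, PEO1 replicate 2 or PEO4 replicate 3, with log2 fold changes of 1.23, 1.06 and 1.24. HOXA4, HOXA11 and HOXA13 were not tested in either pair, and HOXA6 was not tested in pair B.

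Cluster D was nearly unexpressed. HOXD8 was the only member above 1 CPM in any group, with 4.96, 5.76 and 6.05 CPM in PEO1 and 0.123, 0.0567 and 0.245 CPM in PEO4 of pair A, and 1.73, 1.69 and 1.84 CPM against 0.39, 0.552 and 0.783 CPM in pair B. The groups did not overlap, and HOXD8 fell by 5.33 ± 0.336 and 1.61 ± 0.27. HOXD1 was tested in pair A, with 14, 11 and 21 counts against 2, 0 and 0, a ratio of 22.1 (5.77 to 188). HOXD13, the digit and genital regulator at the 5′ end, was tested in pair B, with 6, 4 and 3 counts in PEO1 and 0 in PEO4, at least 4.2-fold lower. It passed the filter only with the treated libraries of pair B included, and is counted among the lower calls of that pair. HOXD3, HOXD4, HOXD9, HOXD10, HOXD11 and HOXD12 had at most 11 counts in any library and were not tested.

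Set side by side, the level in PEO1 of the separate tables was alike for some members and far apart for others. HOXC10 averaged 69.5 ± 5 CPM in PEO1 of pair A and 18.4 ± 0.345 CPM in untreated PEO1 of pair B, HOXC11 averaged 4.37 ± 0.517 and 0.326 ± 0.0601 CPM, and HOXC12 averaged 12.3 ± 1.32 and 0.287 ± 0.242 CPM. In the opposite direction, HOXA7 averaged 0.278 ± 0.0946 and 9.13 ± 0.312 CPM and HOXA10 averaged 0.811 ± 0.143 and 7.4 ± 0.218 CPM. HOXB2 averaged 124 ± 3.11 and 146 ± 8.82 CPM. BRCA2 status and the counts of overlapping genes differ between these tables, and PEO1 of pair B is described in the study as a spontaneous revertant. The study also names sodium pyruvate in the medium of BRCA2-impaired PEO1 and its PEO4, the lines of pair A. The library kit of pair B is not given in the sources used here, and the parts of these differences cannot be told apart.

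The genes on a list of non-coding genes of the clusters were lower in PEO4 in most cases. The list also holds PRAC1, PRAC2 and HOXA10-HOXA9, which are coding or readthrough genes kept for their place in the clusters. Of 32 listed, 28 were in the tables and 14 were tested in pair A, of which 2 were higher, against 12.6% of all genes, and 12 lower, against 13.1%. In pair B 15 were tested, of which 1 was higher, against 12.2%, and 14 were lower, against 12.6%. Among these, HOXA-AS3, HOXA10-AS, HOXA10-HOXA9, HOXB-AS3 and HOXC13-AS were lower and HOXB-AS1 was higher in pair B. Their reads cannot be told apart there from those of the HOX genes they overlap, so these calls are not separate observations. HOXB-AS1, which overlaps HOXB2 and HOXB3, rose with them by 1.19 ± 0.264 and 1.54 ± 0.0828. HOTAIRM1, at the 3′ end of cluster A, fell by 4.75 ± 0.29 and 2.45 ± 0.276. HOTAIR, which lies by HOXC11, had 77, 26 and 89 counts in PEO1 of pair A, 0 in PEO4 of pair A and at most 2 counts in any library of pair B.

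The clusters also hold microRNA genes, whose products repress HOX mRNAs among others. The row of MIR196B, between HOXA9 and HOXA10, had 32, 38 and 43 counts in PEO1 and 0 in PEO4 of untreated pair B, and 0 in all of pair A. The row of MIR10A, within the annotated span of HOXB3, had 9, 8 and 7 counts in PEO1 and 26, 17 and 13 in PEO4 of pair A, a rise of 1.27 ± 0.476 (adjusted p = 0.035). These are reads of polyadenylated RNA over the hairpin and not a measure of the mature microRNA. Their mature sequences from RefSeq (GRCh38.p14) are shown because they lie beside the genes that fell and rose, with the seed, bases 2 to 8, in capitals:
miR-196b-5p: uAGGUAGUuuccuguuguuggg
miR-10a-5p: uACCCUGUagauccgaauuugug

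HOX proteins bind DNA with cofactors of the PBX, MEIS and PKNOX families. Of these 9 genes, all were tested in pair A, with 5 higher and 2 lower in PEO4, and 7 in pair B, with 5 higher and 1 lower, beside the same shares of all genes. MEIS1 measured 94.2 ± 3.31 CPM in PEO1 and 322 ± 33.6 CPM in PEO4 of pair A, and 24.6 ± 0.932 and 118 ± 15.1 CPM in untreated pair B, and rose by 1.77 ± 0.0866 and 2.26 ± 0.076. PBX3 rose by 1.94 ± 0.18 and 1.15 ± 0.13. MEIS2 fell, from 54.6 ± 2.12 to 0.209 ± 0.0481 CPM in pair A and from 6.34 ± 0.725 to 0.0768 ± 0.0681 CPM in pair B.

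Over all genes 12.6% were called higher and 13.1% lower in pair A, and 12.2% and 12.6% in pair B, beside which the following lists are given. Of 17 tested genes that flank the clusters, SKAP1, which lies beside cluster B, was lower in PEO4 in both pairs, and CALCOCO1, beside cluster C, was higher in pair B, while the other 16 and 15 were not called. Their median log2 fold change was -0.04 in pair A and 0.19 in pair B. Of 13 tested Polycomb genes, which keep silent HOX genes repressed, BMI1 was lower in pair A and CBX7 higher in pair B. Of 8 trithorax and MLL genes, which keep HOX genes active, 0 were called in either pair by edgeR's test, and 3 and 7 had an unadjusted p under 0.05 in pairs A and B. Among the retinoic acid genes, the pathway that induces HOX genes from the 3′ end, 11 and 10 were tested, with 3 higher and 5 lower in pair A and 3 higher and 2 lower in pair B. ALDH1A3, which makes retinoic acid, averaged 1240 ± 20.4 CPM in PEO1 and 19 ± 11.3 CPM in PEO4 of pair A, and 2914 ± 131 and 549 ± 190 CPM in untreated pair B.

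The time course in PDS asked how each line of pair B responds to a G4 ligand. HOX genes changed little beside the difference between the lines. In PEO1 BRCA+ at 2 h, 0 of the 24 tested were called higher, against 1.18% of all genes tested, and HOXC6 and HOXC13 were lower, against 6.39%. At 6 h HOXD8 was higher, against 1.29%, and HOXC13 lower, against 6.83%. In PEO4 at 2 h HOXB9 was higher, against 6.40%, and HOXA7 and HOXC13 were lower, against 11.0%. At 6 h HOXA10 and HOXB9 were higher, against 6.26%, and HOXC13 was lower, against 16.3%. With only the PEO4 groups compared, HOXB9 and HOXC13 at 2 h and HOXA10 and HOXC13 at 6 h did not pass the filter. They were tested because the filter on low counts ran over all libraries of pair B. Some of the 24 tested had at most 3 counts over every PEO4 group, as given below. The comparisons of a line share its untreated libraries. Scaling by library totals moved the median of all genes after PDS to between -0.13 and -0.19, from between -0.03 and 0.00, and in PEO4 at 6 h the share of higher calls among all calls fell from 27.7% to 17.3%, but no HOX call changed sign.

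**Figure D4:**
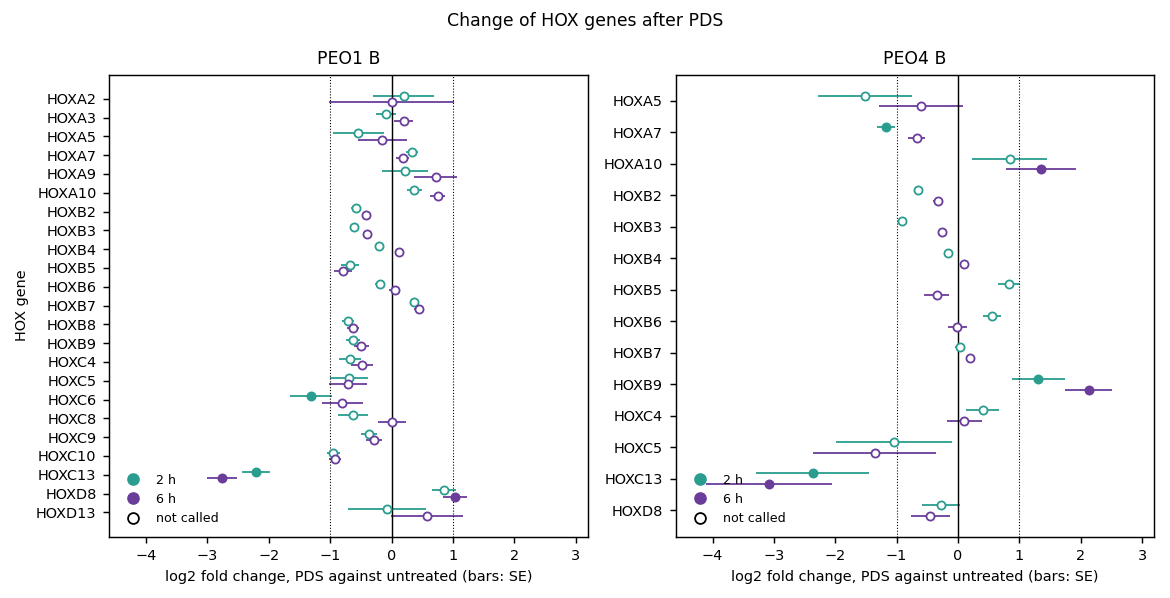
Log2 fold change after 2 h (green) and 6 h (purple) in PDS against untreated cells, with SE, for HOX genes above 3 counts in at least 1 group of each comparison, in PEO1 BRCA+ (left) and PEO4 (right). Filled points were called, and dotted lines mark -1 and 1. HOXC13 lies lowest in both lines, on 0 to 4 counts per library in PEO4.

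HOXC13 fell in PEO1 BRCA+ at both times. It measured 4.7, 5.33 and 5.58 CPM untreated, 0.913, 1.27 and 1.16 CPM at 2 h and 1, 0.637 and 0.646 CPM at 6 h. No treated library reached the untreated ones, and the log2 fold changes were -2.21 ± 0.229 and -2.76 ± 0.241 (adjusted p = 2.1e-08 and 1.3e-09). HOXC13-AS, which overlaps it, fell by 2.75 ± 0.289 and 2.29 ± 0.276 over the same times, but reads of these genes cannot be told apart and the falls are not separate observations. In PEO4 HOXC13 had 2, 4 and 1 counts untreated, 1, 0 and 1 at 2 h and 0, 1 and 0 at 6 h, which gave ratios of 6.11 (1.16 to 60.3) and 11.7 (1.5 to 527). In CPM the untreated libraries lay above the treated ones, on counts of 0 to 4, and both calls were lost without untreated PEO4 replicate 2, with log2 fold changes of -1.71 and -2.42. The 2 h call was also lost without PDS 2 h replicate 2, at -1.91.

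HOXC6 measured 1.82, 2.6 and 1.36 CPM in untreated PEO1 BRCA+ and 1.13, 0.853 and 0.358 CPM at 2 h, and fell by 1.31 ± 0.344 (adjusted p = 0.0025). Without PDS 2 h replicate 3 the log2 fold change was -0.96 and the call was lost. HOXC10 measured 18.3, 18.8 and 18.1 CPM untreated, 9.38, 9.36 and 9.9 CPM at 2 h and 9.74, 10.2 and 9.22 CPM at 6 h. The libraries of both times lay below every untreated one, but its log2 fold changes of -0.95 ± 0.103 and -0.92 ± 0.102 (adjusted p = 1.5e-07 and 2e-07) stayed under the fold threshold. HOXC-AS3, which overlaps HOXC10, was called lower at both times, and whether they shared reads was not tested. HOXC4 and HOXC5, the expressed genes whose shared promoter holds the motif, had values of -0.67 ± 0.178 and -0.69 ± 0.311 at 2 h and were not called, whereas HOXC6, called lower above, has the same annotated start and overlaps both.

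HOXD8 rose in PEO1 BRCA+. It measured 1.73, 1.69 and 1.84 CPM untreated, 3.31, 2.61 and 3.58 CPM at 2 h and 4.23, 3.34 and 3.26 CPM at 6 h, with log2 fold changes of 0.85 ± 0.197 at 2 h and 1.04 ± 0.195 at 6 h (adjusted p = 0.00085 and 7.9e-05). The treated libraries were above the untreated ones, and the 6 h value went under the fold threshold with library totals (0.89), with upper-quartile scaling (0.95) and without PDS 6 h replicate 1 (0.91). In PEO4 HOXD8 had 0.39, 0.552 and 0.783 CPM untreated and 0.358, 0.397 and 0.509 CPM at 6 h, a log2 fold change of -0.45 ± 0.321 that was not called.

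HOXB9 rose in PEO4 from a low level. It had 5, 2 and 3 counts untreated, 11, 17 and 16 at 2 h and 38, 14 and 23 at 6 h, that is 0.216, 0.1 and 0.138 CPM, then 0.306, 0.481 and 0.384 CPM, then 0.906, 0.427 and 0.688 CPM. The untreated libraries lay below all treated ones, and HOXB9 rose by 1.31 ± 0.426 at 2 h and 2.13 ± 0.381 at 6 h (adjusted p = 0.0092 and 2.3e-05). It stayed far below PEO1 BRCA+, where it measured 13.2, 14.6 and 13.5 CPM untreated and 9.41, 10.4 and 9.63 CPM at 6 h, a log2 fold change of -0.49 ± 0.118 under the fold threshold. HOXA10 had 4, 1 and 0 counts in untreated PEO4 and 8, 7 and 7 at 6 h, with a log2 fold change of 1.35 ± 0.574 (adjusted p = 0.046). That call was lost in 10 alternatives, among them DESeq2's Wald test and, in turn, each of the 3 libraries at 6 h left out, with log2 fold changes from 0.79 to 2.90 over all alternatives. In PEO1 BRCA+ HOXA10 measured 7.57, 7.48 and 7.16 CPM untreated and 12.4, 12.7 and 12.2 CPM at 6 h, a value of 0.75 ± 0.123 that was not called.

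HOXA7 fell in PEO4 at 2 h by 1.17 ± 0.145 (adjusted p = 1.5e-07), from 3.16, 3.01 and 3.59 CPM to 1.44, 1.3 and 1.58 CPM, with no overlap. At 6 h it measured 2.19, 2.01 and 1.92 CPM, a value of -0.67 ± 0.139 that was not called. HOXA-AS3, whose reads cannot be told apart from those of HOXA7, was also called lower at 2 h.

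**Figure D5:**
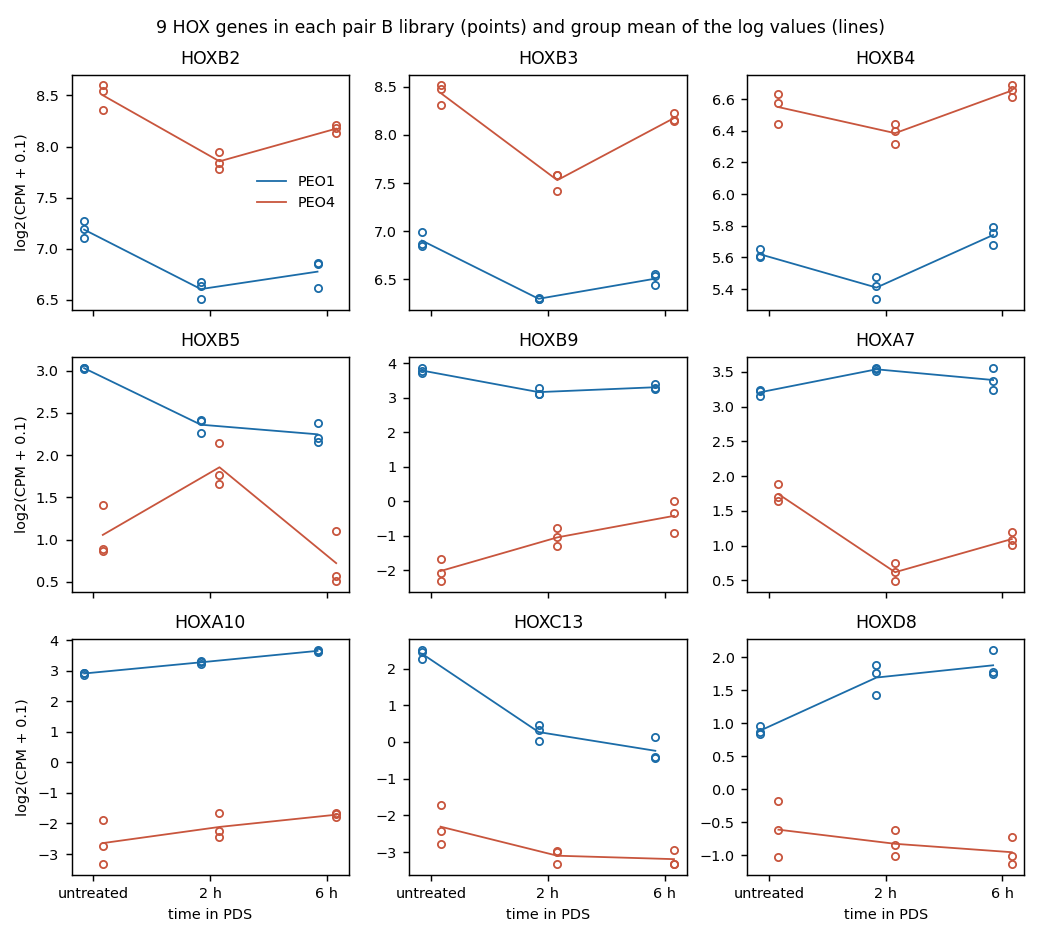
Level of 9 HOX genes, as log2 of CPM + 0.1, in each pair B library (points) untreated and after 2 and 6 h in PDS, with lines through the mean of the log values, for PEO1 BRCA+ (blue) and PEO4 (red). HOXB2 and HOXB3 dip at 2 h in both lines. HOXB5 at 2 h is lower than untreated in PEO1 BRCA+ and higher in PEO4, and HOXD8 rises in PEO1 BRCA+ and not in PEO4.

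The genes that led HOX expression moved by less than the fold threshold. HOXB3 in PEO4 measured 318, 356 and 366 CPM untreated, 192, 171 and 192 CPM at 2 h and 284, 300 and 283 CPM at 6 h. All treated libraries lay below the untreated ones, and the log2 fold changes were -0.91 ± 0.061 at 2 h and -0.26 ± 0.0604 at 6 h (adjusted p = 3.8e-12 and 0.00045). In PEO1 BRCA+ HOXB3 had -0.61 ± 0.0624 and -0.40 ± 0.0621 (adjusted p = 1.9e-08 and 8.1e-06). HOXB2 had -0.65 ± 0.071 and -0.33 ± 0.0707 in PEO4 and -0.58 ± 0.0724 and -0.41 ± 0.0722 in PEO1 BRCA+. HOXB4 had -0.17 ± 0.0572 and 0.10 ± 0.057 in PEO4, and -0.21 ± 0.0597 and 0.12 ± 0.0592 in PEO1 BRCA+. By adjusted p alone, 16 HOX genes differed in PEO1 BRCA+ at 2 h, of 24 tested, against 52.6% of all genes, 12 at 6 h, against 53.0%, 8 in PEO4 at 2 h, against 65.3%, and 7 at 6 h, against 69.8%. The 24 include HOXA2, HOXA3, HOXA9, HOXB8, HOXC6, HOXC8, HOXC9, HOXC10 and HOXD13, with at most 3 counts over each PEO4 group of pair B. These could hardly be called in PEO4. The PEO4 counts beside the shares of all genes therefore do not measure how far HOX genes respond.

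Between 2 and 6 h 0 of the 24 tested HOX genes were called in PEO1 BRCA+ by edgeR's test or DESeq2's, 6 had an unadjusted p under 0.05 in edgeR, and the background was 0.0705% of all genes higher and 0.0999% lower. By adjusted p alone 2 differed, HOXB3 and HOXB4, against 6.94%. In PEO4 2 of the 24 tested were called between 6 and 2 h, against 2.27% of all genes higher and 9.71% lower, among them HOXB5, which was lower. By adjusted p alone 9 differed, against 60.1%, with the same limit from members at 3 counts or fewer in PEO4. HOXB5 measured 1.73, 2.56 and 1.75 CPM untreated, 4.31, 3.06 and 3.31 CPM at 2 h and 1.38, 2.04 and 1.32 CPM at 6 h. The 2 h libraries stood above all others, at 0.83 ± 0.184 against untreated cells and -1.18 ± 0.174 from 2 to 6 h (adjusted p = 0.00034 and 2.9e-06).

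The response was then compared between the lines by the interaction of line and treatment. At 2 h the response of HOXB5, HOXB9 and HOXC4 was higher in PEO4 than in PEO1 BRCA+, against 6.10% of all genes, and that of HOXA7 and HOXD8 was lower, against 4.92%. By adjusted p alone 8 differed, against 37.3%. At 6 h HOXB9 was higher, against 5.42%, and HOXD8 lower, against 9.34%. HOXB5 showed -0.68 ± 0.148 in PEO1 BRCA+ and 0.83 ± 0.184 in PEO4 at 2 h, a difference of 1.51 ± 0.236 (adjusted p = 1.7e-05). HOXA7 showed 0.33 ± 0.102 and -1.17 ± 0.145, a difference of -1.50 ± 0.178 (adjusted p = 3.5e-07). Reads of HOXB5 and HOXA7 cannot be told apart from those of HOXB-AS3 and HOXA-AS3, which were called higher and lower in the same comparison. For HOXB9 the difference was 1.95 ± 0.435 at 2 h and 2.62 ± 0.394 at 6 h (adjusted p = 0.00098 and 7.3e-06), and for HOXD8 it was -1.13 ± 0.373 and -1.49 ± 0.38 (adjusted p = 0.019 and 0.0022). HOXC4 showed -0.67 ± 0.178 and 0.40 ± 0.275, a difference of 1.07 ± 0.327 (adjusted p = 0.012) that went under the fold threshold without untreated PEO1 replicate 2 (0.81), PEO4 PDS 2 h replicate 1 (0.99) or untreated PEO4 replicate 3 (0.98). The HOXD8 call at 2 h was lost without untreated PEO4 replicate 3, at -0.84.

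The lists that follow are given beside the shares of all genes called lower, which were 6.39% and 6.83% in PEO1 BRCA+ and 11.0% and 16.3% in PEO4 at 2 and 6 h, and higher, which were 1.18%, 1.29%, 6.40% and 6.26% in the same order. Among the cofactors, PBX2 was lower after PDS in both lines at both times. MEIS2 rose in PEO4 from 3, 2 and 0 counts to 24, 18 and 33 at 2 h and 34, 17 and 20 at 6 h, with log2 fold changes of 3.04 ± 0.468 and 3.02 ± 0.471. PBX2 lies in the major histocompatibility region, where alternative copies of the assembly can take its reads. Of the 15 tested genes on the list of non-coding genes of the clusters, 4 were lower in PEO1 BRCA+ at 2 h and 3 at 6 h. In PEO4 3 were lower at 2 h, and HOXA10-AS was higher and HOXC13-AS lower at 6 h. Reads of HOXA10-AS and HOXC13-AS cannot be told apart from those of HOXA10 and HOXC13. ALDH1A3 rose in PEO4 from 549 ± 190 CPM to 2090 ± 215 CPM at 2 h and 2064 ± 40.9 CPM at 6 h. Of the 10 tested retinoic acid genes, 2 were called higher and 1 lower in PEO4 at 2 h. At 6 h ALDH1A3 was the only 1 higher there, beside 3 lower. In PEO1 BRCA+ 0 were called higher by edgeR's test, and 1 was lower at 2 h and 3 at 6 h. RXRB was lower in both lines at both times. Of the 17 flanking genes, ATP5MC3 was higher and SKAP1 lower in PEO1 BRCA+ at both times, and in PEO4 0 were called at 2 h by edgeR's test, where 14 had an unadjusted p under 0.05, and SKAP1 and CALCOCO1 were lower at 6 h.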

How the data were processed

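Polyadenylated RNA was sequenced in paired ends for 24 libraries, and labels gave the groups. The authors checked reads with FastQC, trimmed them with fastp, aligned them to hg38 with STAR, counted them with featureCounts and deposited raw counts per gene; versions, annotation and the use of strand are not given in the sources used here. Pair A libraries were made with a directional polyA kit per the labels; the kit of pair B is not given in the sources used here. Lines without readable counts, 2 in pair A and 1 in pair B, were left out, and 0 columns lacked a sample.

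Genes were filtered with filterByExpr (minimum count 10, minimum total 15) and scaled by TMM. Each table was fitted by edgeR 4.0.16's robust quasi-likelihood model in R 4.3.3, with 4 and 12 residual degrees of freedom, and p-values were Benjamini-Hochberg adjusted over all genes tested. DESeq2 1.42.0 was an alternative. Scripts were tested on simulated data. Folds against groups at 0 were computed at 3 counts over the group, and ratios have exact conditional Clopper-Pearson intervals (95%). Intervals cover counting error only. Where a member had 0 to 3 counts in both groups no fold is given.

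Full statistics were planned for up to 6 called members in each direction per comparison, by absolute log2 fold change, and up to 6 of the highest members per line; from the other lists, called genes and the 2 highest by CPM could be named. Other members and non-members given with values, among them called members beyond these limits, were named after their values were seen. Counts cover all members, but some genes are not reported here by name or shown in figures. The members and gene lists were chosen with earlier results of these data known. The design names 3 biological replicates per group. In pair B 6 of 45 same-numbered pairs of groups correlated over 0.1 and in pair A 0 of 3, so numbers were not treated as pairing the samples.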

Additional observations from a re-analysis of the deposited data

Results flagged for a closer look

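The response to PDS differed between PEO4 and PEO1 BRCA+ by the interaction test for the following members. At 2 h the log2 difference was 1.51 for HOXB5, 1.95 for HOXB9 and 1.07 for HOXC4, and it was -1.50 for HOXA7 and -1.13 for HOXD8. At 6 h it was 2.62 for HOXB9 and -1.49 for HOXD8. Reads of HOXB5 and HOXA7 in pair B cannot be told apart from those of the genes that overlap them. HOXA7 differed between the pairs, with a log2 fold change of PEO4 against PEO1 of 1.26 in pair A and -1.49 in pair B, and that difference was not tested because the tables were counted separately. Groups of 3 libraries were not searched for single outlying libraries.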

How the results depend on the processing

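Of 67 called HOX values, 51 were tested and called under every alternative run with the fold threshold, 7 were called wherever tested but did not pass the filter on low counts in at least 1 alternative, 9 lost the call in at least 1, and none changed sign where tested. By adjusted p alone the counts were 16 for PEO1 BRCA+ at 2 h, 12 at 6 h and 2 for 6 against 2 h, 8, 7 and 9 for PEO4, and 8 for the difference of the responses at 2 h, since the fold threshold was dropped. With only the groups compared, which leaves fewer samples, the count was 1 for PEO4 at 2 h, at 6 h and for 6 against 2 h. The other called members did not pass the filter and were not tested, among them HOXB9 and HOXC13 at 2 h and HOXA10 and HOXC13 at 6 h. Without a filter on low counts the count was 4 for PEO1 BRCA+ at 6 h, and the cause was not tested. Leaving out single libraries gave 2 to 3 calls for PEO1 BRCA+ at 2 h, 2 to 4 at 6 h (4 without PDS 6 h replicate 2 or untreated replicate 3), 3 to 5 for PEO4 at 2 h (5 without untreated replicate 1), 1 to 3 at 6 h (1 without untreated replicate 2) and 3 to 6 for the difference of the responses at 2 h (3 without untreated PEO4 replicate 3). With the replicate block 25 and 23 HOX genes were called between the lines in pairs A and B, 2, 2, 3 and 3 after PDS, 0 and 2 between 2 and 6 h, and 5 and 2 for the differences of response, all equal to the counts without it, and correlations between same-numbered libraries ran from -0.301 to 0.527. HOX genes with at most 3 counts over a group lay below what this depth can measure.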
